A study of Mus musculus with 2 samples.

Results

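Collagen chain genes encode the alpha chains that fold in threes into collagen, the main structural protein of connective tissue. The genes described here are all those whose mouse symbol is "Col", a type number, "a" and a chain number. A total of 44 of the 35275 gene identifiers in the deposited count table have such a symbol. The choice used no measured value, although it was made with earlier results of these data known. RNA was sequenced from mesenchymal stem/progenitor cells (MSPC) of mouse bone marrow, stromal cells that can give rise to bone, cartilage and fat. By the labels, the sort kept cells that bore CD140 and Sca-1 and lacked CD45, Ter-119 and CD31. The control library is from Ptpn11+/+ mice and the mutant library from Ptpn11E76K/+ mice. Both groups are C57BL/6 and carry Nestin-Cre, a Cre recombinase driven by nestin regulatory sequence, which is also active in neural progenitors. Ptpn11 encodes SHP2, a phosphatase that passes growth factor signals on to RAS and ERK, and the E76K allele makes it more active. Age, sex and the number of mice are not given in the labels. Although 2 replicates are mentioned in the design text, each genotype has 1 column of counts. With 1 library per genotype there was no test between genotypes and no replicate check, and no label states whether mice were pooled.

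Collagens share a triple helix, built on a repeat that begins with glycine. Fibrillar collagens assemble into the banded fibrils of bone, skin, tendon and cartilage, and network collagens form sheets such as basement membranes. FACIT collagens (fibril-associated collagens with interrupted triple helices) attach to the surface of fibrils. The other members build beaded filaments, anchor epithelia, span the cell membrane or carry sugar chains in basement membrane zones. Some chains form trimers by themselves and others with partner chains. For the latter the amounts of partners matter for what a cell can assemble. In marrow stroma, type I collagen is best known as the main protein of the bone matrix made by the osteoblast lineage.

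Of the 44 genes, 39 had at least 1 count in either library, and 30 had at least 20 counts over both libraries and are called measured. Each ratio is the mutant over the control count after scaling of the library totals. Its interval is the 95% exact interval of counting error alone, so it compares these libraries and not the genotypes. A gene was called when its whole interval lay beyond 2-fold. By this rule 2 collagen genes were higher in the mutant library, 10 were lower and 18 were not called. Over all 13142 measured genes, 6.98% were called higher and 8.29% lower, or 15.3% in either direction. These shares were 5.53% and 9.98% with library totals that omit the 100 most abundant genes. The median log2 ratio was -0.56 over the measured collagen genes and 0.01 over all measured genes, and 19 of the 30 had a ratio below 1. By class it was -0.42 for fibrillar, 0.29 for network, -0.48 for FACIT and -0.84 for the other genes. Of the 12 called genes, 6 had fewer than 20 counts in the library where they were low. They passed the minimum only through the other library, which by itself favours a call. Among the 23 collagen genes with at least 20 counts in each library, 1 was called higher and 5 lower, against 6.1% and 6.83% of all genes with that depth. The median of these 23 was -0.42, against 0.05 over all such genes.

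**Figure D1:**
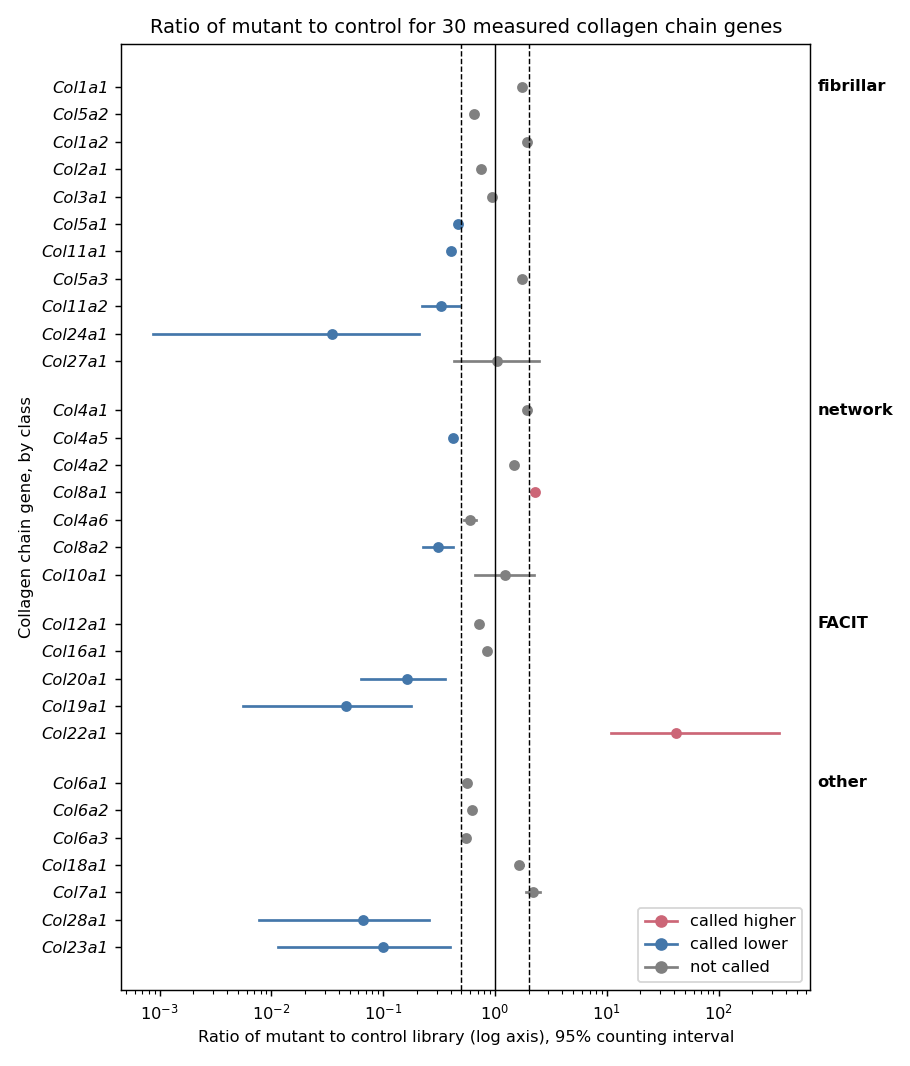
Ratio of the mutant to the control library for the 30 measured collagen genes, on a log axis and grouped by class, with points for the ratio and bars for the 95% counting interval. Dashed lines mark 2-fold. The whole intervals of Col22a1 and Col8a1 lie above the upper line, and those of the 10 genes called lower lie below the other line. Col7a1 has its point above the upper line, but its interval crosses that line. The widest intervals belong to genes with 1 or 2 counts in a library.

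Depth was 22328659 counts for the control and 18010963 for the mutant. Ptpn11 was counted 5958 times in the control library and 5039 times in the mutant one, which does not check the genotype, since a gene count does not separate the alleles. The markers excluded by the sort were near 0, with 1 and 12 counts for Ptprc (CD45) and 5 and 2 for Pecam1 (CD31). Of the markers selected by it, Pdgfra (CD140a) had 2073 and 1792 counts and Pdgfrb (CD140b) 6075 and 3721, neither called. Ly6a (Sca-1) had 2177 and 612 counts and was called lower. These belong to a list of 8 sort and stroma markers, of which 7 were measured, with 2 called higher and 3 lower. Nes (5192 and 10785 counts) and Thy1 (206 and 398) were higher, and Cxcl12 (9749 and 2162) and Prrx1 (5135 and 1404) were lower along with Ly6a. Of 13 myeloid markers 9 were measured and 7 called higher in the mutant library, all 7 with fewer than 20 control counts, so that they passed the minimum through the mutant library alone. Their levels summed to 8.91 CPM (counts scaled to library size) in the control against 47.8 in the mutant, with 8 of the 13 at 0 in the control. The part of these cells in the collagen results was not tested. In bulk RNA, fewer cells that make a transcript and less transcript per cell cannot be told apart.

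Collagens as a group took nearly the same share of both libraries, while the mix of chains differed. They held 519530 of the control counts, or 2.33% (95% exact binomial interval 2.32 to 2.33), and 424265 of the mutant counts, or 2.36% (2.35 to 2.36). The mutant share was the smaller one once the totals left out the 100 most abundant other genes (2.99% and 2.97%), so no direction is drawn for the group. Type I collagen made up 33.6% of collagen counts in the control (33.5 to 33.7) and 55.7% in the mutant (55.5 to 55.8). Type V went from 26.3% (26.2 to 26.4) to 14.5% (14.4 to 14.6) and type VI from 12.7% (12.6 to 12.8) to 6.70% (6.63 to 6.78). Shares of counts weigh long transcripts more. Per kilobase of the longest transcript, type I made up 35.7% in the control and 57.7% in the mutant. The 42 genes other than the type I pair together went from 344889 to 187991 counts, or from 14912 to 10812 CPM.

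**Figure D2:**
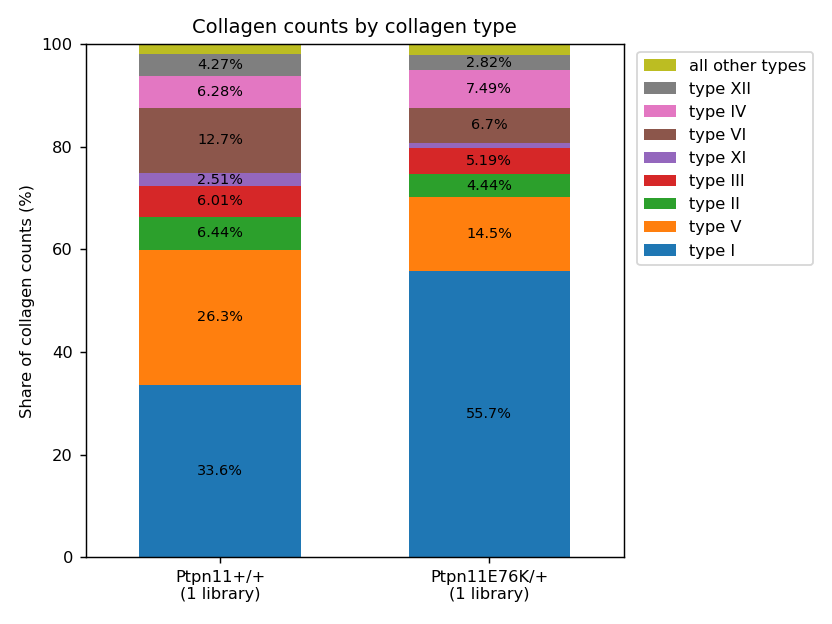
Share of all collagen counts held by each collagen type, in percent, as stacked bars for the control library and the mutant library (1 each). Type I takes 33.6% of the control bar and 55.7% of the mutant bar, and types V and VI take 14.5% and 6.70% of the mutant bar.

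Among the 11 fibrillar genes, all of which were measured, the abundant type I pair was higher in the mutant library without being called, and 4 genes of the minor fibrillar types were called lower. Col1a1 and Col1a2 encode the chains of type I collagen. Col1a1 was counted 131912 times in the control library and 173952 times in the mutant one, at a ratio of 1.75 (1.74 to 1.77). Col1a2 (42729 control and 62322 mutant counts) had a ratio of 1.94 (1.92 to 1.96). Per length, Col1a1 was the most abundant collagen gene in both libraries, at 962 and 1687 CPM per kilobase, and Col1a2 moved from the third place (345) to the second (670). Of the osteoblast markers, Bglap (0 and 1 counts), Ibsp (0 and 0) and Sp7 (0 and 1) were at or near 0 in both libraries. Alpl had 13 and 12 counts and was not called. The 7 osteoblast markers summed to 22.7 CPM in the control against 34.0 in the mutant, most of it Runx2 (442 and 560 counts, not called), and the osteocyte gene Dmp1 had 69 and 17 counts, also not called.

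Col3a1, whose product forms fibrils with type I in soft tissues, was counted 31201 times in the control library and 22020 times in the mutant one and was close to level after scaling, at a ratio of 0.939 (0.923 to 0.955). Col2a1, the main fibrillar collagen gene of cartilage (33442 control and 18827 mutant counts), had a ratio of 0.749 (0.736 to 0.762), and kept the same place per length in both libraries, behind 4 other collagen genes. Other cartilage genes listed ranged widely. Acan, which encodes aggrecan, had 1 count in each library, Matn3 4 and 3, and the type IX chain gene Col9a1 had 0 in both. Of the 8 chondrocyte markers listed, 3 are collagen genes, 5 were measured, and the 3 called lower were Sox9 (2568 and 725 counts), Comp (1264 and 184) and Cnmd (99 and 2). The list summed to 1617 CPM in the control against 1137 in the mutant, nearly all of it Col2a1. The part of such cells in the Col2a1 value was not tested.

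Type V and type XI collagen are laid into type I and type II fibrils and limit their width. Col5a2 was the second most abundant collagen gene per length in the control library (607 CPM per kilobase) and the third in the mutant (390). With 93078 control and 44905 mutant counts, it lay 1.56-fold lower (1.54 to 1.58), which is short of a call. Its partner Col5a1 (41759 control and 14514 mutant counts) was called 2.16-fold lower (2.12 to 2.20). That call is near the threshold, since it was lost, at a ratio of 0.502, after a correction for transcript length and GC content. A pair of antisense transcripts overlaps Col5a1 exons by 99 and 113 bases in the annotation used here, but they had only 118 and 57 counts and 189 and 81 counts. Col5a3, the third type V chain gene, went the other way, with 1671 and 2179 counts and a ratio of 1.73 (1.63 to 1.85).

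Col11a1, which encodes a type XI chain, was counted 12914 times in the control library and 3953 times in the mutant one and was 2.46-fold lower (2.37 to 2.55). Col11a2 was far less abundant, with 149 and 37 counts, and was 3.03-fold lower (2.10 to 4.47). Both chains of type XI that have their own gene were thus called lower. In cartilage they trimerize with a product of Col2a1, described above. Col24a1, a fibrillar gene with a role in bone matrix, had 38 counts and 1 count and was 28.6-fold lower (4.83 to 1158). It passed the minimum only through the control library. Col27a1 (14 control and 11 mutant counts) had a ratio of 1.05 (0.429 to 2.48), and its direction changed with the scaling of the totals.

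The sequences just before the annotated starts of Col5a1, Col11a1 and Col11a2 are shown because these are the minor fibrillar genes that were called lower and whose windows the RefSeq table holds without ambiguity (build GRCm38.p6). Each run is 250 bases, 5′ to 3′ on the gene's strand, and ends at the base before the start. Capitals mark a CCAAT box by its letters CCAAT, a GC box by GGGCGG and a TATA box by TATAAA, each searched on both strands.
Col5a1, chr2:27886175-27886424, plus strand: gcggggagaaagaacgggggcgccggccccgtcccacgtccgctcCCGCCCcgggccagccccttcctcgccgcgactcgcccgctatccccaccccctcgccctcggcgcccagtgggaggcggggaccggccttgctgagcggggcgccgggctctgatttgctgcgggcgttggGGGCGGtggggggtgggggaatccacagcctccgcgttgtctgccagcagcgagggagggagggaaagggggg
Col11a1, chr3:114030290-114030539, plus strand: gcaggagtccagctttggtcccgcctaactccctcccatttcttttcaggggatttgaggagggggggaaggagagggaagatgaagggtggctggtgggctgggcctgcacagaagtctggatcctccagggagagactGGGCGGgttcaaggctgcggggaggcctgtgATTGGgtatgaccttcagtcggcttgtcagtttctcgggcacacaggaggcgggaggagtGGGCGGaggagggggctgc
Col11a2, chr17:34038888-34039137, plus strand: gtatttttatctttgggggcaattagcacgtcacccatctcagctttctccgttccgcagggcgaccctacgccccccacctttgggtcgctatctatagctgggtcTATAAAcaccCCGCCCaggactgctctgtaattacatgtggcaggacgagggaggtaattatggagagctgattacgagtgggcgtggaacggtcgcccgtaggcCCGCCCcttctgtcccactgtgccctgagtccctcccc
The windows of Col5a1 and Col11a2 had no CCAAT and that of Col11a1 had 1. Each of the 3 windows had 2 GC boxes, and only that of Col11a2 had a TATAAA. Of the 38 windows listed for 35 collagen genes, 57.9% held a GC box, 34.2% a CCAAT and 13.2% a TATAAA. Over all 32851 windows in the table these shares were 32.7%, 33.8% and 12.4%. No 2 different motifs overlapped in a collagen window. A match describes the letters only and does not show that a factor binds there.

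In the network class, 7 of 9 genes were measured, with Col8a1 called higher, Col4a5 and Col8a2 called lower and 4 not called. Type IV collagen is the sheet-forming collagen of basement membranes, and its 6 genes lie as head-to-head pairs. Col4a1 was counted 11974 times in the control library and 17374 times in the mutant one, at a ratio of 1.93 (1.89 to 1.98). Col4a2 (9823 control and 10813 mutant counts) had a ratio of 1.46 (1.42 to 1.505). Neither was called. The pair on the X chromosome was lower instead. Col4a5 (9977 control and 3175 mutant counts) lay 2.36-fold lower (2.27 to 2.46), and Col4a6 (869 control and 391 mutant counts) lay 1.67-fold lower (1.48 to 1.89) without a call. Col4a3 and Col4a4, whose products belong to the kidney filter and other special membranes, stayed under the minimum with 2 and 11 and with 7 and 9 counts.

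The starts of Col4a1 and Col4a2 are shown because the pair was higher together and is read outward from one point. In the RefSeq annotation (GRCm38.p6) Col4a2 on the plus strand starts at the first of these 22 bases. Col4a1 on the minus strand starts at the last, so the transcripts overlap by this stretch. It is printed without capitals because the motifs were not searched in it, although it holds the letters of a GC box.
Col4a1 and Col4a2 starts, chr8:11312805-11312826, plus strand: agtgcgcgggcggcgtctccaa
The shared stretch compares with longest transcripts of 6615 bases for Col4a1 and 6450 bases for Col4a2. Markers of contractile and pericyte cells, which make basement membrane, were mixed. Tagln (7802 and 21867 counts) and Cnn1 (636 and 1196) were called higher and Rgs5 (34 and 1) lower. Acta2 (21444 and 26086) and Cspg4 (4494 and 2367) were not called, and the smooth muscle myosin gene Myh11 had 3 counts in each library. The 6 genes summed to 1488 CPM in the control against 2963 in the mutant, and their part in the type IV values was not tested. Endothelial markers stayed under the minimum, with 6 and 20 counts in all over 6 genes.

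Type VIII collagen forms hexagonal lattices, as in the Descemet membrane of the cornea and around vessels, and its chain genes Col8a1 and Col8a2 went opposite ways. Col8a1 was counted 1793 times in the control library and 3050 times in the mutant one, at a ratio of 2.26 (2.13 to 2.40). The call was lost with 3 other scalings of the totals, where the ratio was 2.07 to 2.11. Col8a2 (223 control and 52 mutant counts) lay 3.22-fold lower (2.38 to 4.45), and stayed called under every scaling tried. Per length Col8a1 was above Col8a2 in both libraries, at 15.2 against 2.23 CPM per kilobase in the control and at 34.3 against 0.690 in the mutant. Col10a1, the collagen gene of hypertrophic cartilage (25 control and 23 mutant counts), had a ratio of 1.22 (0.664 to 2.25). The windows upstream of the type VIII genes are shown because the pair diverged.
Col8a1, chr16:57754738-57754987, minus strand: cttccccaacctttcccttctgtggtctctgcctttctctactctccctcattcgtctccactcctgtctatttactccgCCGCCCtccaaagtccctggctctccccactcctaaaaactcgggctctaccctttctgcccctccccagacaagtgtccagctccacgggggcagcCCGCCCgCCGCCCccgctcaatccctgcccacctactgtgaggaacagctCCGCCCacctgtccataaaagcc
Col8a2, chr4:126286544-126286793, plus strand: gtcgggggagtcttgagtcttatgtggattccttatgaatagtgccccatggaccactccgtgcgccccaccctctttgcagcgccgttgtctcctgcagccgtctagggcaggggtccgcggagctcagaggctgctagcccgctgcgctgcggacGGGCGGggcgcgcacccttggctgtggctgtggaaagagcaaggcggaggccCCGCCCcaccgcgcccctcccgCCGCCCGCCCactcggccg
Capitals again mark the 3 motifs on either strand. Each window held 4 GC boxes, a pair of which overlap in Col8a2, and neither held a CCAAT or a TATAAA. The Col8a2 window includes 1 base of an annotated exon.

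**Figure D3:**
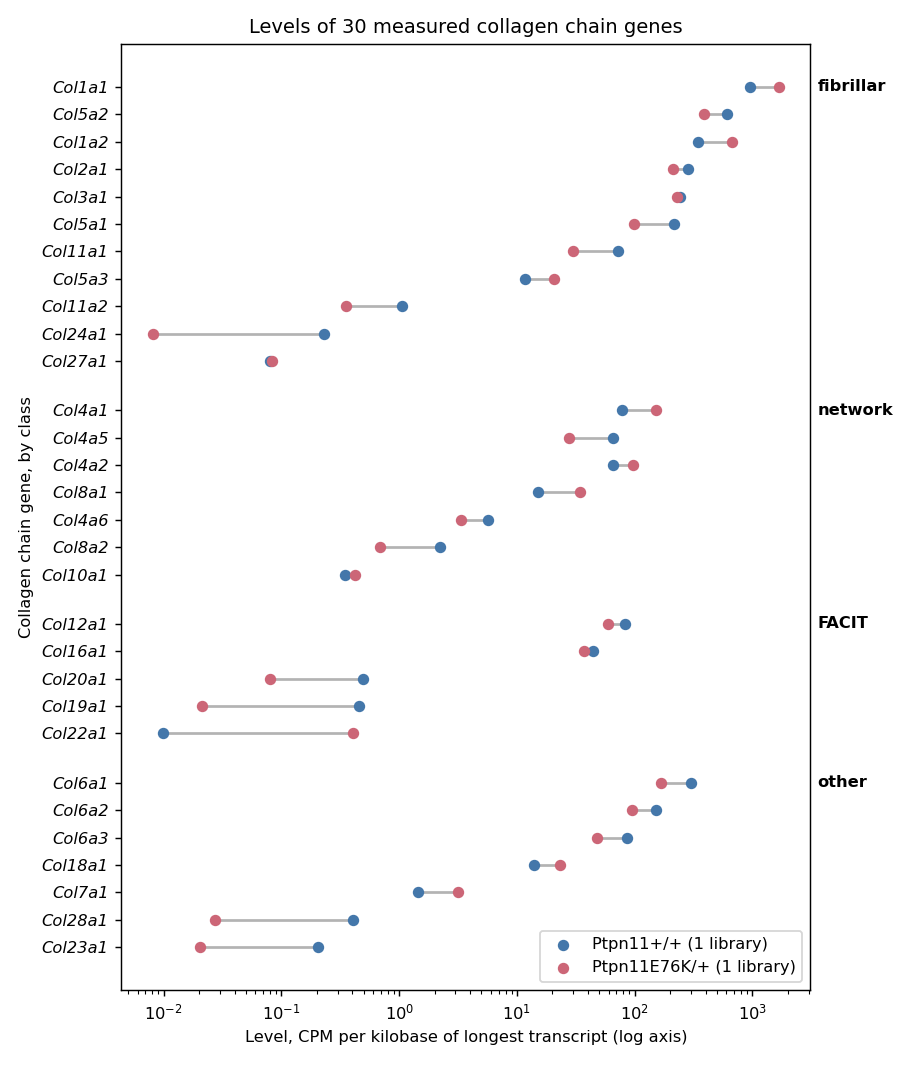
Level of each of the 30 measured collagen genes in the control library and in the mutant library (1 each), in CPM per kilobase of longest transcript on a log axis, grouped by class. Col1a1 tops both libraries at 962 and 1687, and the genes with the widest gaps, Col24a1, Col19a1 and Col22a1, all sit below 1 CPM per kilobase.

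Of the 9 FACIT genes 5 were measured, with Col22a1 called higher, Col19a1 and Col20a1 called lower and 2 not called. The abundant members were Col12a1 and Col16a1, whose products lie on or near collagen fibrils in many connective tissues. Col12a1 was counted 22188 times in the control library and 11957 times in the mutant one, 1.40-fold lower (1.36 to 1.43). Its ratio went from 0.717 to 0.904 after the length and GC correction. Col16a1 (5329 control and 3383 mutant counts) lay 1.18-fold lower (1.13 to 1.24). The called genes were all at low levels, and all passed the minimum only through the library where they were high. Col22a1, known from tissue junctions such as that of muscle and tendon, was counted 2 times in the control library and 62 times in the mutant one, at a ratio of 41.2 (10.9 to 348). Col19a1 (57 control and 2 mutant counts) lay 21.4-fold lower (5.67 to 181), and Col20a1 (57 control and 7 mutant counts) lay 6.12-fold lower (2.79 to 15.9). A further transcript model on the same strand, with 196 and 79 counts, overlaps Col20a1 exons by 79 bases, so some reads may be shared. The cartilage chain genes Col9a2 and Col9a3 had 2 and 1 and 14 and 4 counts, and Col14a1, a FACIT gene of dense connective tissue, had 6 and 13.

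Among the 15 other genes, 7 were measured, with 0 called higher, 2 called lower and 5 not called. Both called genes, Col23a1 and Col28a1, passed the minimum only through the control library. Type VI collagen forms beaded filaments around cells, and its 3 main chain genes were lower by about the same amount. Col6a1 was counted 28608 times in the control library and 12039 times in the mutant one and was 1.79-fold lower (1.75 to 1.82). Col6a2 (17319 control and 8051 mutant counts) lay 1.62-fold lower (1.57 to 1.66), and Col6a3 (20160 control and 8338 mutant counts) lay 1.82-fold lower (1.77 to 1.86). None of the 3 was called, and all 3 were called when the interval had to lie beyond 1.5-fold only. The later-found type VI genes were barely seen. Col6a4 was counted 0 times in the control library and 14 times in the mutant one, and was under the minimum. Its ratio would be 6.21 if a floor of 3 counts stood for the control, and the exact lower bound was 4.41. Col6a5 had 0 and 1 counts, and Col6a6 had 0 in both.

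Col7a1 encodes the anchoring fibril collagen that ties epithelium to dermis. It was counted 308 times in the control library and 510 times in the mutant one, at a ratio of 2.20 (1.91 to 2.55), which was not called, but the ratio was 2.45 and called after the length and GC correction. The keratinocyte genes Krt5 and Krt14 had 0 and 1 and 0 and 3 counts, and Trp63 (315 and 16 counts) was the one called gene of the 6 keratinocyte markers, in the lower direction. That list summed to 18.2 and 5.69 CPM, most of the control sum from Trp63. Col18a1, a basement membrane zone collagen whose end fragment is endostatin (1807 control and 2247 mutant counts), had a ratio of 1.65 (1.55 to 1.76). Its relative Col15a1 had 0 and 1 counts. The membrane-spanning collagen gene Col23a1 (27 control and 2 mutant counts) lay 10.1-fold lower (2.55 to 88.1). Col17a1, the hemidesmosome collagen gene of keratinocytes, had 6 and 12 counts and was under the minimum. Col28a1, known from peripheral nerve (40 control and 2 mutant counts), had a ratio of 0.0665 (0.00779 to 0.256). Of the Schwann cell markers, S100b had 52 and 28 counts and Sox10 was at 0 in both libraries. The part of such cells in the Col28a1 value was not tested. Col13a1, Col25a1 and Col26a1 had 0 counts in both libraries, where a floor of 3 counts would be 0.130 CPM in the control and 0.173 in the mutant, for counting error only.

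Ratios of chains to one another do not depend on how the library totals are scaled. They were not corrected for trends over transcript length and GC content, which can act unequally on 2 chains. Of 15 pairs listed, 11 had at least 20 counts over both libraries for each chain. Col1a1 had 3.09 counts per Col1a2 count in the control (3.05 to 3.12) and 2.79 in the mutant (2.77 to 2.82), so this pair stayed near its ratio, at 0.904 of the control value (0.891 to 0.917). Without such a correction the type VI genes stayed close together. The Col6a3 to Col6a1 ratio in the mutant was 0.983 of that in the control (0.951 to 1.02), and Col6a1 to Col6a2 was at 0.905 (0.875 to 0.937). With it, the mutant to control ratio of Col6a3 rose from 0.550 to 0.628. That of Col6a1 fell from 0.560 to 0.532, so these genes moved apart. The Col11a1 to Col11a2 ratio was 1.23 times the control value (0.853 to 1.82), an interval that includes 1, with only 37 mutant counts for Col11a2.

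Other pairs differed more. The Col4a1 to Col4a2 ratio was 1.22 in the control (1.19 to 1.25) and 1.61 in the mutant (1.57 to 1.65), 1.32 times as high (1.27 to 1.37). Within type V, Col5a1 lost ground to Col5a2, at 0.720 of the control ratio (0.705 to 0.736), while Col5a3 gained on Col5a1 by 3.75 times (3.51 to 4.01). Against Col1a1, the ratio of Col3a1 was 0.535 of the control value (0.525 to 0.545) and that of Col5a1 0.264 (0.258 to 0.269). The Col4a5 to Col4a6 ratio was 0.707 of the control value (0.623 to 0.804). The widest shift among the 11 pairs was that of Col8a1 to Col8a2, from 8.04 in the control (6.99 to 9.28) to 58.7 in the mutant (44.6 to 78.7), or 7.29 times (5.34 to 10.1).

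**Figure D4:**
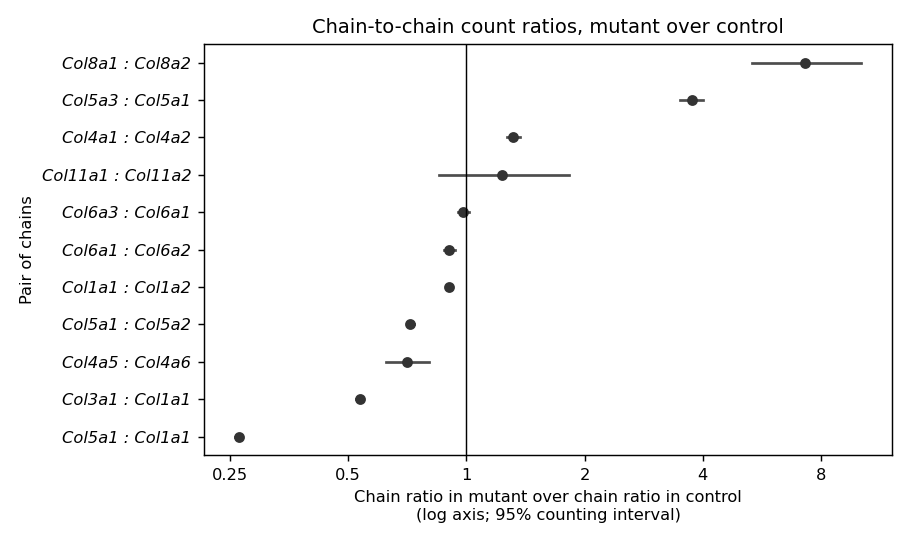
Count ratio between 2 chains in the mutant library divided by the same ratio in the control library, on a log axis with 95% counting intervals, for the 11 measured pairs. The type VI pairs and the type I pair lie near 1, Col8a1 to Col8a2 lies highest at 7.29 and Col5a1 to Col1a1 lowest at 0.264. The values have no length and GC correction.

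Several collagen genes are next to each other in the genome, by the order of protein-coding genes in RefSeq (GRCm38.p6), and 8 adjacent pairs are made of 2 collagen genes. Where both neighbours were measured, they lay on the same side of 1 in all 4 pairs. These were Col4a1 with Col4a2 (both above 1) and Col4a5 with Col4a6, Col6a1 with Col6a2 and Col3a1 with Col5a2 (all below 1). Col3a1 was close to level, at a ratio of 0.939. As 19 of the 30 measured collagen genes lay below 1, and no share over other pairs was computed, no effect of position is drawn from this. Most of these neighbours also share a trimer, so position and partnership cannot be told apart here. The other 4 pairs each held a gene under the minimum.

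Collagen needs a set of helpers between translation and the fibril, and 65 such genes were listed in 7 groups, of which 54 were measured. The list was drawn up with earlier results of these data known. Of the 54, 4 were called higher and 10 lower, with 40 not called, against the 6.98% and 8.29% over all genes given above. Of the enzymes that modify the chains, 1 of 14 measured was called lower and 0 higher, with log2 ratios from -1.05 to 0.57 (median -0.28). That gene was Plod2, a lysyl hydroxylase gene that prepares cross-links of the fibril ends, with 14541 and 5291 counts, 2.07-fold lower at the very edge of the call, which was lost with DESeq2 size factors and after the length and GC correction. The prolyl hydroxylase gene P4ha1, which makes the helix stable (12556 control and 9382 mutant counts), had a ratio of 0.994, while P3h2 and P4ha2, of the same list, had ratios of 0.517 and 0.571 without a call. All 10 genes of folding and secretion were uncalled (median 0.07), among them the collagen chaperone gene Serpinh1 (33410 and 35674 counts, ratio 1.42). Fkbp14, a prolyl isomerase gene of that list, had 1924 and 697 counts and a ratio of 0.482, and was called lower with 3 other scalings of the totals.

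The propeptide removal list had 1 of 6 measured genes called higher and 1 lower (median 0.05). Both had fewer than 20 counts in the library where they were low, and neither was measured at a minimum of 20 counts in each library. Pcolce2, which encodes an enhancer of propeptide removal (16 control and 831 mutant counts), had a ratio of 69.1 (42.3 to 121). Tll1, a protease gene related to Bmp1 (143 control and 15 mutant counts), lay 7.17-fold lower, while Bmp1 itself (3966 and 2688) had a ratio of 0.902. In the cross-linking list 1 of 6 was called higher and 0 lower (median 0.40). That was Tgm2, a transglutaminase gene, with 43 and 766 counts, a ratio of 23.7 (17.4 to 33.0). Lox, the most abundant lysyl oxidase gene (77971 control and 45037 mutant counts), had a ratio of 0.768, and was not called.

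Small leucine-rich proteoglycans, which coat fibrils and set their spacing and width, were the one group in which all measured genes were called, with 7 of 7 lower (median log2 ratio -1.76). Fmod, which encodes fibromodulin (3657 control and 121 mutant counts), lay 22.7-fold lower, and Prelp (6491 control and 292 mutant counts) lay 16.7-fold lower. Dcn, the decorin gene (18370 control and 2472 mutant counts), lay 5.59-fold lower, and the biglycan gene Bgn (130385 and 34693 counts) 2.83-fold lower. Omd (676 and 150 counts), Aspn (545 and 141) and Ogn (11902 and 3228) were 3.39-fold, 2.91-fold and 2.77-fold lower, and the length and GC correction ended the call of Aspn. Lum and Kera were under the minimum, at 4 and 0 and at 0 and 0 counts.

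Of 8 measured genes for collagen receptors and uptake, 1 was called higher and 1 lower (median -0.39). Itga1, the integrin subunit gene with a preference for type IV collagen (1705 control and 337 mutant counts), lay 3.80-fold lower, and Itga10 (52 and 120 counts) had a ratio of 3.07 (2.20 to 4.34). The fibrillar collagen receptor gene Itga11 had 3000 and 1054 counts and a ratio of 0.467 (0.435 to 0.501), just short of a call, which it reached in 5 of the 6 alternatives of scaling or correction. Of 3 measured collagenase and gelatinase genes, Mmp13 was called higher with 55 and 192 counts, a ratio of 4.64 (3.42 to 6.39), while Mmp14 and Mmp2 had ratios of 1.14 and 0.741.

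**Figure D5:**
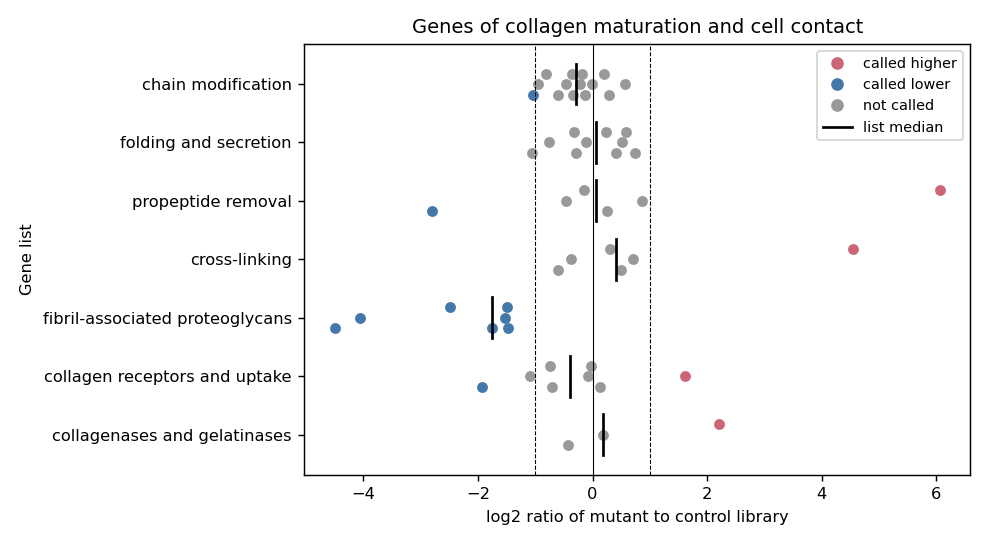
log2 ratio of the mutant to the control library for the 54 measured helper genes, 1 point per gene, by list, with a black bar at each list's median and dashed lines at 2-fold. The 7 fibril-associated proteoglycan genes all lie below the lower dashed line, around a median of -1.76, and the medians of the other 6 lists lie between -0.39 and 0.40.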

How the data were processed

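RNA of 1 library per genotype was compared. The authors deposited raw read counts per Ensembl gene, whole numbers with no normalization. The submitters' processing notes name CASAVA, TopHat, edgeR and mm9, with no version or role. No source used here gives the read counter, annotation release or strand setting. Symbols were matched for 34490 of 35275 identifiers. Lengths and GC content come from GENCODE M21 transcripts (another build, so used for lengths, overlaps and names only), and promoter windows from RefSeq on GRCm38.p6.

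Library totals were scaled with TMM factors (1.036 for the control and 0.965 for the mutant) from edgeR 4.0.16 in R 4.3.3. Ratios have 95% exact Clopper-Pearson intervals from SciPy 1.17.1 and chain ratios exact conditional intervals, which cover counting error only. Reads without molecular identifiers are not independent molecules. Median log2 ratios use a prior count of 0.5 per library. No p-value was computed. The procedure was tested on simulated libraries, but the outcome is not given here and no error rate is drawn from it.

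All collagen genes with at least 20 counts and all called helper genes are named. The collagen genes were taken by symbol alone, without use of a measured value. Even so, they, the helper and marker lists and the rules were chosen with earlier results of these data known. Some genes of the marker lists are not reported here. Alternatives were other scalings including DESeq2 1.42.0 size factors, a correction that removes trends over transcript length and GC content, and other minimums, thresholds and priors.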

Additional observations from a re-analysis of the deposited data

How the results depend on the processing

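The count of 10 collagen genes called lower was 10 under all 5 other scalings, 9 after the length and GC correction and 8 with 99% intervals. It was 5 at a minimum of 100 counts and at 20 counts in each library (the latter chosen after seeing the data), and 3 beyond 3-fold. The count of 2 called higher was 1 with unscaled totals and with totals that omit the 100 most abundant genes or the collagen genes. It was also 1 at a minimum of 100 counts, at 20 counts in each library and beyond 3-fold. It was 3 after the length and GC correction, at a minimum of 10 counts and with no minimum. Beyond 1.5-fold, 8 were higher and 14 lower. Over all genes, 2.88% were higher and 3.53% lower beyond 3-fold, and 15.7% and 15.6% beyond 1.5-fold. The median log2 ratio of -0.56 lay between -0.69 and -0.24 throughout. The median over all genes moved from 0.01 to -0.10 with total counts and to -0.12 without the most abundant genes. Collagen shares of 2.33% and 2.36% became 2.99% and 2.97% without the 100 most abundant other genes. Helper calls ranged from 3 to 4 higher and 9 to 12 lower, in alternatives added after seeing the data. Of 180 ratios of single collagen genes under 6 alternatives, 175 stayed on their side of the call threshold (most of them never called), 4 lost a call, 1 gained one and no called value changed direction. The uncalled Col27a1 did. The median instead of the longest transcript length moved chain ratios per length, that of Col1a1 to Col1a2 in the control from 2.78 to 14.7. No paired analysis was possible because each genotype has 1 library. Depth limits the genes under about 60 counts, whose intervals span several-fold.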
